A study of Homo sapiens with 2 samples.

Results

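The genes that make, break down and read out cyclic AMP (cAMP) were compared between parental control A1847 cells and CARM1 KO A1847 cells by RNA-Seq. The set held 44 protein-coding genes out of 57736 genes in the count table. It was chosen by gene symbol, as every phosphodiesterase gene named PDE with a digit apart from PDE4DIP, the adenylyl cyclases ADCY1 to ADCY10, the catalytic and regulatory subunits of protein kinase A (PKA), and the cAMP-activated exchange factors RAPGEF3 and RAPGEF4. A1847 is a human ovarian cancer cell line. The parental library came from cells labelled CARM1 wild type, and the CARM1 KO library from 1 clone of the same line made by CRISPR with a guide RNA against CARM1, which encodes an arginine methyltransferase. The guide was placed in a pLentiCRISPR vector, and the paper gives puromycin selection for cells infected with viruses that carry resistance to it. No other treatment of the sequenced cells is given. Loss of CARM1 and the derivation of 1 clone cannot be told apart in this design. There was 1 library per group, so no difference below has a replicate check and no p-value is given.

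Cyclic AMP is an intracellular messenger made from ATP by adenylyl cyclases, most of which sit in the membrane and are switched on or off by G proteins coupled to hormone receptors. Phosphodiesterases (PDEs) hydrolyse cAMP, its relative cGMP or both, and differ in their regulators, so the PDEs that a cell expresses set where and for how long the signal lasts. Cyclic AMP binds the regulatory subunits of PKA, which frees the catalytic subunits to phosphorylate targets that include the transcription factor CREB. It also activates the EPAC proteins, exchange factors for the small GTPase Rap.

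The authors' counts summed to 30741953 reads in the parental library and 32300391 reads in the CARM1 KO library. The targeted gene CARM1 had 975 parental and 380 CARM1 KO reads and was 2.63-fold lower (95% interval 2.33 to 2.97). Of 8 markers of ovarian or tubal carcinoma epithelium, MUC16 had 0 and 1 reads and WT1 had 8 and 1 reads in parental and CARM1 KO cells, so both were absent or nearly so. PAX8, EPCAM, CDH1, KRT7 and KRT8 were more than 3-fold higher in CARM1 KO cells, and KRT18 was 2.37-fold higher. Of 4 fibroblast markers, COL1A2, DCN and LUM were past the same threshold in the other direction and COL1A1 was higher, and their summed level was 51.0 in parental and 1.89 in CARM1 KO cells. COL1A2, with 16732 and 3 reads, made up 49.7 of the parental sum, and COL1A1, with 131 and 537 reads, made up 1.87 of the CARM1 KO sum. DCN had 24 and 0 reads and LUM 61 and 1 reads. Of the leukocyte markers, PTPRC had 6 and 0 reads, CD3E had 0 reads in both libraries, and CD68 was 4.01-fold higher in CARM1 KO cells. The endothelial markers CDH5 and VWF had at most 2 reads in either library. Levels here and below are RPKM values, that is reads per kilobase of merged exons scaled to library size, and are the scale on which genes are set side by side. The marker shifts run alongside the differences below, and their part in them was not tested. In bulk RNA, fewer cells of a type and less RNA per cell cannot be told apart.

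A gene was called higher or lower when its fold after TMM scaling was above 3 and the exact 95% binomial interval of the fold excluded 1. Intervals cover counting error only, and a count of 0 was set to 3 reads, the limit that it allows. At least 10 reads in both libraries together were counted for 38 of the 44 genes. Of these 38, 10 were called higher in the CARM1 KO library, 7 were called lower and 21 were not called. Among all 14140 protein-coding genes past the same minimum, 12.4% were called higher and 9.02% lower, 21.4% in either direction. The called share of all genes was lower where more reads were counted, so it was also read at matched depth. Among genes with 1000 reads or more, 4 of 15 cAMP genes were called, against a background of 10.2%. With 100 to 999 reads, 8 of 13 were called, against 28.5%. With 10 to 99 reads, 5 of 10 were called, against 44.1%. Under stricter rules fewer genes kept their call. With the whole interval past a fold of 3, 5 genes were called higher and 4 lower, against a background of 7.65% and 6.19%. With edgeR's exact test at an assumed coefficient of variation of 0.4, PDE4B, PDE1C and PDE6B were called higher and PDE4D, PDE3B and PDE4C lower, 3 in each direction, against 2.17% and 4.11% (6.28% in all). At an assumed 0.12, where 8.64% of all genes were called lower, ADCY2 was the gene that lost its call. The median log2 fold change of the 38 genes was 0.023, beside 0.033 for all protein-coding genes, with 19 genes above and 19 below 0. The differences went both ways and nearly cancelled in the median. The sign of so small a median turned with the scaling, which gave -0.015 with library size only.

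**Figure D1:**
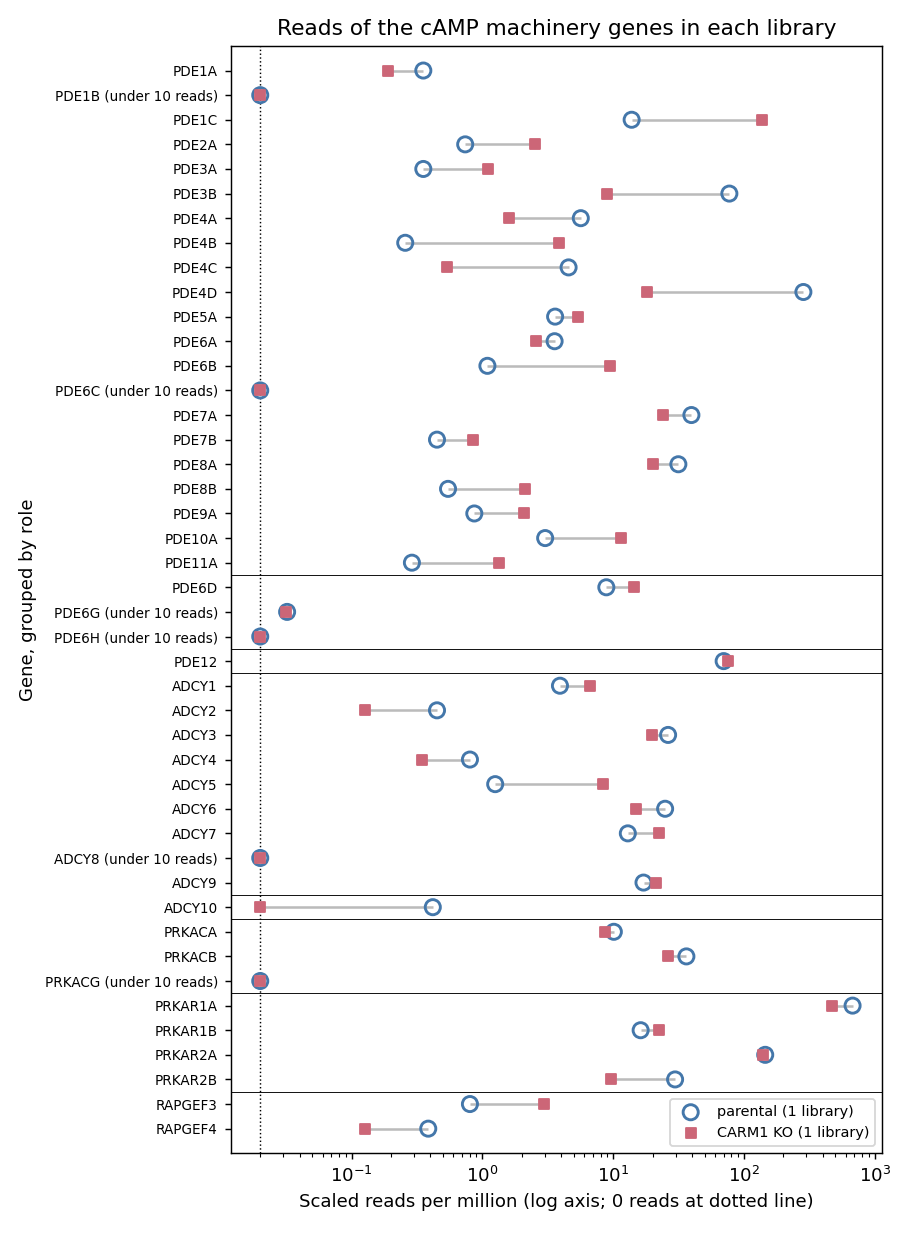
Reads scaled to library size (RPM, log axis) for each of the 44 genes in the parental library (open circles) and the CARM1 KO library (squares), 1 library each, grouped by role from the catalytic PDEs at the top to the EPAC genes at the bottom. Apart from ADCY10, with 0 reads in CARM1 KO cells, the longest connecting lines belong to PDE4D and PDE4B, while the PKA subunits other than PRKAR2B differ by at most 1.44-fold.

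The 21 catalytic PDE genes held most of the calls. Of 19 with enough reads, 8 were called higher, 4 were called lower and 7 were not called. These shares were 42.1% higher and 21.1% lower, beside 12.4% and 9.02% of all genes. By depth, the share of all genes called in either direction ran from 10.2% at 1000 reads or more to 44.1% at 10 to 99 reads. PDE4D, which encodes a cAMP-specific enzyme, had 8865 parental and 579 CARM1 KO reads. This was 15.7-fold lower (95% interval 14.4 to 17.1). PDE3B, whose enzyme hydrolyses cAMP and is inhibited by cGMP, had 2408 parental and 286 CARM1 KO reads and was 8.62-fold lower (95% interval 7.62 to 9.78). Of the catalytic PDE genes, these had the highest levels per kilobase of exon in parental cells. PDE1C, whose enzyme is switched on by calcium and calmodulin and hydrolyses both cAMP and cGMP, ran the other way. It had 431 parental and 4393 CARM1 KO reads and was 9.96-fold higher (95% interval 9.02 to 11.0).

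All 4 PDE4 genes were called, in both directions, beside 21.4% of all genes. PDE4D had 1000 reads or more, where 10.2% of all genes were called, and the others had 100 to 999 reads, where 28.5% were. PDE4 enzymes are specific for cAMP and are the targets of rolipram. PDE4B had 8 parental and 122 CARM1 KO reads and was 14.9-fold higher (95% interval 7.32 to 35.3). PDE4C had 142 parental and 17 CARM1 KO reads and was 8.55-fold lower (95% interval 5.16 to 15.1). PDE4A had 176 parental and 51 CARM1 KO reads and was 3.53-fold lower (95% interval 2.57 to 4.93). PDE4B was thus the only PDE4 gene called higher. The summed PDE4 level, in RPKM, was 18.9 in parental and 1.85 in CARM1 KO cells. PDE4D made up most of this sum in parental cells, at a level of 17.4, and PDE4B at 0.428 stayed under PDE4D at 1.11 in CARM1 KO cells.

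The other cAMP-specific PDEs belong to the PDE7 and PDE8 families, which rolipram does not inhibit. PDE7A had 1234 and 762 reads in parental and CARM1 KO cells and was 1.66-fold lower (95% interval 1.51 to 1.82). PDE8A had 981 and 639 reads and was 1.57-fold lower (95% interval 1.42 to 1.74). Both were under the fold threshold. The poorly expressed paralog PDE8B had 17 and 68 reads and was called higher, 3.91-fold (95% interval 2.27 to 7.09). PDE7B had 14 and 27 reads, and the interval of its ratio, 0.954 to 3.89, included 1.

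Among the PDEs that hydrolyse both nucleotides, 5 of 7 with enough reads were called higher and 1, PDE3B, was called lower. Of all genes, 12.4% were called higher and 9.02% lower. PDE1A, PDE3A and PDE11A had 10 to 99 reads, where 44.1% of all genes were called in either direction. PDE2A and PDE10A had 100 to 999 reads, where 28.5% were, and PDE1C and PDE3B 1000 or more, where 10.2% were. Besides PDE1C, the higher genes were at low levels. PDE10A had 94 parental and 368 CARM1 KO reads and was 3.82-fold higher (95% interval 3.04 to 4.85). PDE2A, whose enzyme is stimulated by cGMP, had 23 and 80 reads and was 3.40-fold higher (95% interval 2.11 to 5.66). PDE11A had 9 and 43 reads and was 4.67-fold higher (95% interval 2.24 to 10.9). The remaining members of the group were the least well counted. PDE3A, the paralog of PDE3B, had 11 and 35 reads and was 3.11-fold higher (95% interval 1.54 to 6.78). PDE1A had 11 and 6 reads, a difference not detectable at this depth, and PDE1B had 0 reads in both libraries.

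The PDEs that prefer cGMP are those of the PDE5, PDE6 and PDE9 families. PDE6B, a subunit of the photoreceptor enzyme, had 34 parental and 304 CARM1 KO reads and was 8.73-fold higher (95% interval 6.12 to 12.8). Its partner PDE6A had 111 and 82 reads, 1.39-fold lower (95% interval 1.03 to 1.87), and PDE6C, the cone subunit, had 0 reads in both libraries. PDE6B was therefore the only photoreceptor PDE gene called. PDE5A, the target of sildenafil, had 112 and 171 reads and was 1.49-fold higher (95% interval 1.17 to 1.91). PDE9A had 27 and 66 reads and was 2.39-fold higher (95% interval 1.50 to 3.89). Both were under the fold threshold. The inhibitory subunit genes of the PDE6 enzyme, PDE6G with 1 read in each library and PDE6H with 0 reads in both, could not be compared.

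Of the genes that carry a PDE symbol without encoding a cyclic nucleotide hydrolase, neither with enough reads was called. PDE6D, a carrier of prenylated proteins, had 276 and 456 reads in parental and CARM1 KO cells and was 1.61-fold higher (95% interval 1.39 to 1.88). PDE12, a mitochondrial enzyme that trims RNA, had 2178 and 2391 reads, 1.07-fold higher (95% interval 1.01 to 1.14).

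**Figure D2:**
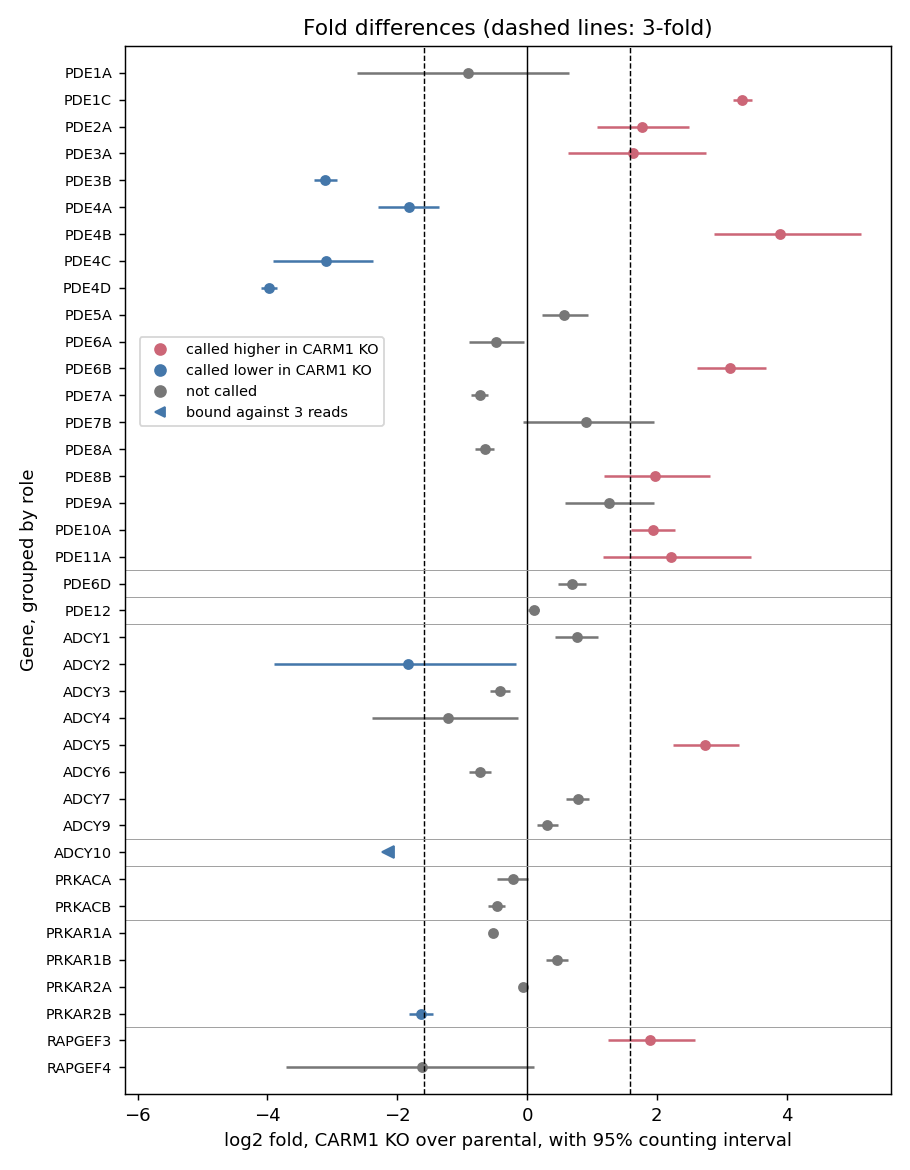
Fold of CARM1 KO over parental on a log2 axis for the 38 genes counted with 10 reads or more in all, with 95% counting intervals and dashed lines at 3-fold. The 10 genes called higher lie right of the right line and the 7 called lower lie left of the left line. The triangle for ADCY10, labelled as a bound, is the ratio with its 0 set to 3 reads.

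Levels per length showed which enzymes dominated each family. In parental cells, PDE4D made up 48.5% of the summed level of the catalytic PDE genes and PDE3B 18.5%, followed by PDE8A at 11.0% and PDE7A at 10.4%. In CARM1 KO cells, PDE1C made up 44.9%, up from 2.73% in parental cells, and PDE4D made up 5.13%. PDE8A at 11.5% and PDE7A at 10.4% came next after PDE1C, so the shares of these PDE7 and PDE8 genes were close to those in parental cells. PDE6B at 8.62% ranked before PDE4D. With the longest annotated transcript as the length, PDE4D made up 52.4% in parental cells and PDE1C 43.6% in CARM1 KO cells, and the same genes ranked first.

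The summed level of the catalytic PDE genes was 35.9 in parental and 21.7 in CARM1 KO cells, a 1.66-fold lower sum. Without PDE4D it was 18.5 and 20.6, so PDE4D alone turned the direction of the sum. By substrate, the summed level of the 8 cAMP-specific genes was 26.8 in parental and 7.13 in CARM1 KO cells, 3.76-fold lower. For these genes without PDE4D it was 9.34 and 6.02. The summed level of the 8 genes that hydrolyse both nucleotides was 7.92 and 11.4, 1.44-fold higher in CARM1 KO cells. Without PDE1C it was 6.94 and 1.64, so PDE1C set that direction. The summed level of the 5 cGMP-preferring genes was 1.23 and 3.17, 2.57-fold higher, and without PDE6B it was 1.02 and 1.30. These sums describe 1 library each and are sums of RNA levels, not of enzyme activity.

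**Figure D3:**
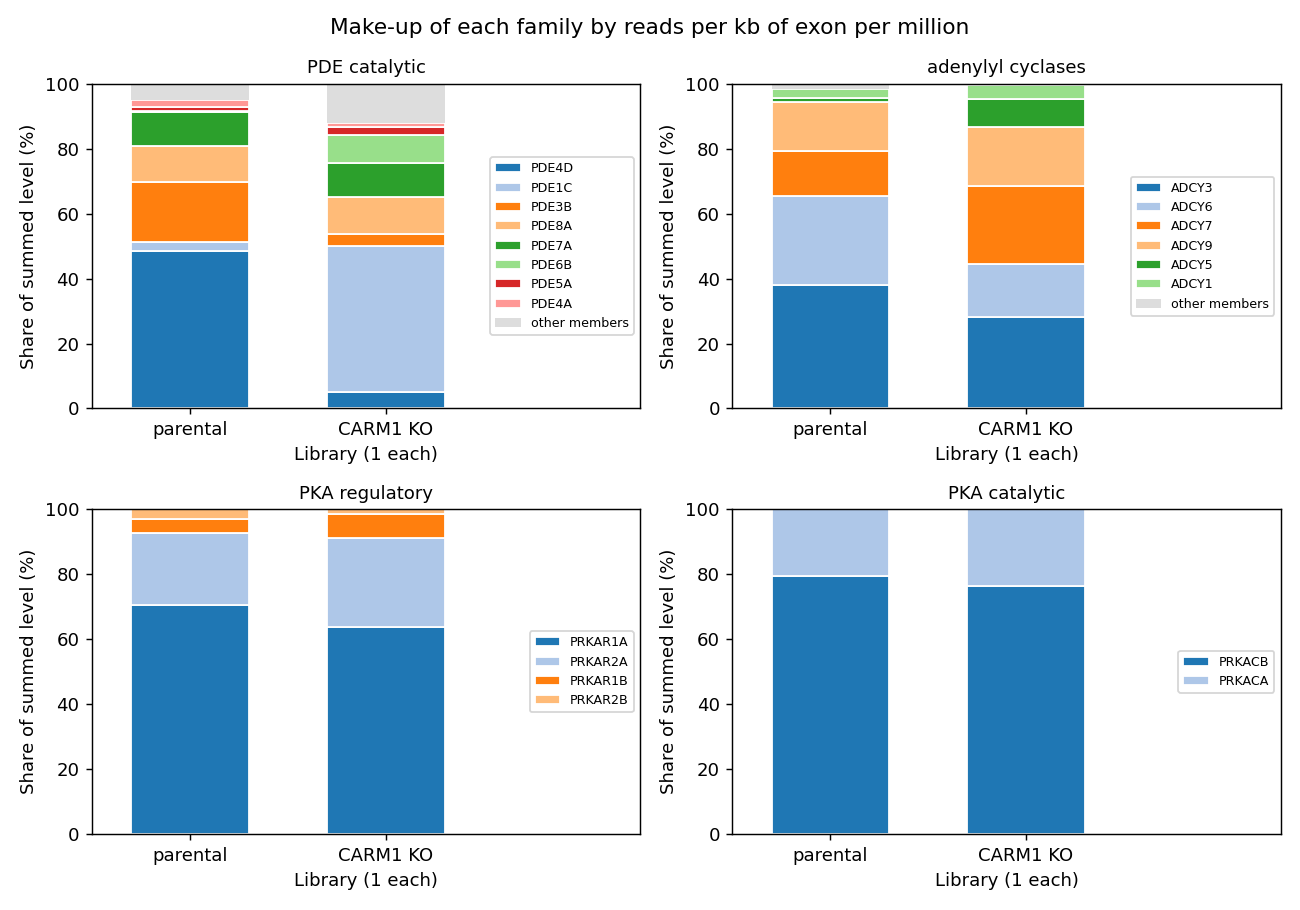
Share of each gene in the summed level of its family (percent, from RPKM) in the parental and CARM1 KO library, for catalytic PDEs, adenylyl cyclases, PKA regulatory and PKA catalytic subunits, with genes under 2% in both libraries pooled in grey. The PDE panel changes from PDE4D at 48.5% to PDE1C at 44.9%, while in the PKA panels the same gene leads in both libraries.

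Of the 10 adenylyl cyclase genes, 9 had enough reads, and 1 was called higher and 2 lower. The called share was 33.3%, beside 21.4% of all genes. ADCY10, ADCY2 and ADCY4 had 10 to 99 reads, where 44.1% of all genes were called. ADCY5 and ADCY1 had 100 to 999 reads, where 28.5% were. ADCY3, ADCY6, ADCY7 and ADCY9 had 1000 reads or more, where 10.2% were. ADCY5, whose membrane enzyme is inhibited by Gi proteins and by calcium, had 39 parental and 266 CARM1 KO reads and was 6.66-fold higher (95% interval 4.75 to 9.58). ADCY10, the soluble cyclase that responds to bicarbonate, had 13 parental and 0 CARM1 KO reads. It was 4.44-fold lower with the 0 set to 3 reads, and its counting interval reached down to 3.12-fold. ADCY2 had 14 and 4 reads and was 3.58-fold lower (95% interval 1.13 to 15.0). Both lower genes were thus counted from few reads.

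The cyclases with more reads differed less than 3-fold. ADCY3, which is stimulated by calmodulin, had 819 and 628 reads in parental and CARM1 KO cells and was 1.34-fold lower (95% interval 1.20 to 1.48). ADCY6, the paralog of ADCY5, had 777 and 480 reads and was 1.66-fold lower (95% interval 1.48 to 1.86). ADCY7 had 403 and 708 reads and was 1.72-fold higher (95% interval 1.52 to 1.94). ADCY6 and ADCY7 thus differed in opposite directions. ADCY9 had 531 and 675 reads and was 1.24-fold higher (95% interval 1.11 to 1.39). ADCY1 had 122 and 212 reads and was 1.70-fold higher (95% interval 1.35 to 2.14). The other members were close to the limit of detection. ADCY4 had 25 and 11 reads, 2.33-fold lower (95% interval 1.10 to 5.24), and ADCY8 had 0 reads in both libraries. By level per length, ADCY3 ranked first in both libraries, with 37.9% of the summed cyclase level in parental and 28.1% in CARM1 KO cells. ADCY6 ranked next in parental cells at 27.4%, and ADCY7 ranked next in CARM1 KO cells at 23.8%. The summed cyclase level was 10.7 in parental and 10.8 in CARM1 KO cells, so the family differed in its make-up and hardly in its sum.

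PKA is a complex of regulatory and catalytic subunits. Of the 6 PKA genes with enough reads, 1 (16.7%) was called, beside 21.4% of all genes. All but PRKACA had 1000 reads or more, where 10.2% of all genes were called. PRKACA had 592 reads, a depth at which 28.5% were called. The called gene was the regulatory subunit gene PRKAR2B. It had 926 parental and 306 CARM1 KO reads and was 3.10-fold lower (95% interval 2.72 to 3.54), and its interval spanned the fold threshold. PRKAR1A, the type I subunit gene with the highest level per length of all 44 genes, had 21077 and 15020 reads and was 1.44-fold lower (95% interval 1.41 to 1.47). PRKAR2A had 4527 and 4462 reads, and the interval of its fold, 0.996 to 1.08 lower, included 1. The type II subunit genes therefore diverged, with PRKAR2B called and PRKAR2A nearly level. PRKAR1B had 505 and 713 reads and was 1.38-fold higher (95% interval 1.23 to 1.55).

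Of the catalytic subunit genes, PRKACB had 1130 and 837 reads in parental and CARM1 KO cells and was 1.38-fold lower (95% interval 1.26 to 1.51). PRKACA had 315 and 277 reads, and the interval of its lower fold, 0.988 to 1.37, included 1. PRKACG, a retrogene copy, had 0 reads in both libraries. None of the catalytic genes was called. PRKACB made up 79.3% of the summed catalytic level in parental and 76.4% in CARM1 KO cells. PRKAR1A made up 70.7% and 63.7% of the summed regulatory level. The ratio of the summed regulatory to the summed catalytic RNA level was 11.4 in parental and 11.7 in CARM1 KO cells. The leading subunit genes were thus the same in both libraries.

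The EPAC genes were at low levels. RAPGEF3, which encodes EPAC1, had 25 parental and 95 CARM1 KO reads and was 3.71-fold higher (95% interval 2.37 to 6.02). RAPGEF4, which encodes EPAC2, had 12 and 4 reads, and the interval of its ratio, 0.0765 to 1.07, included 1.

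**Figure D4:**
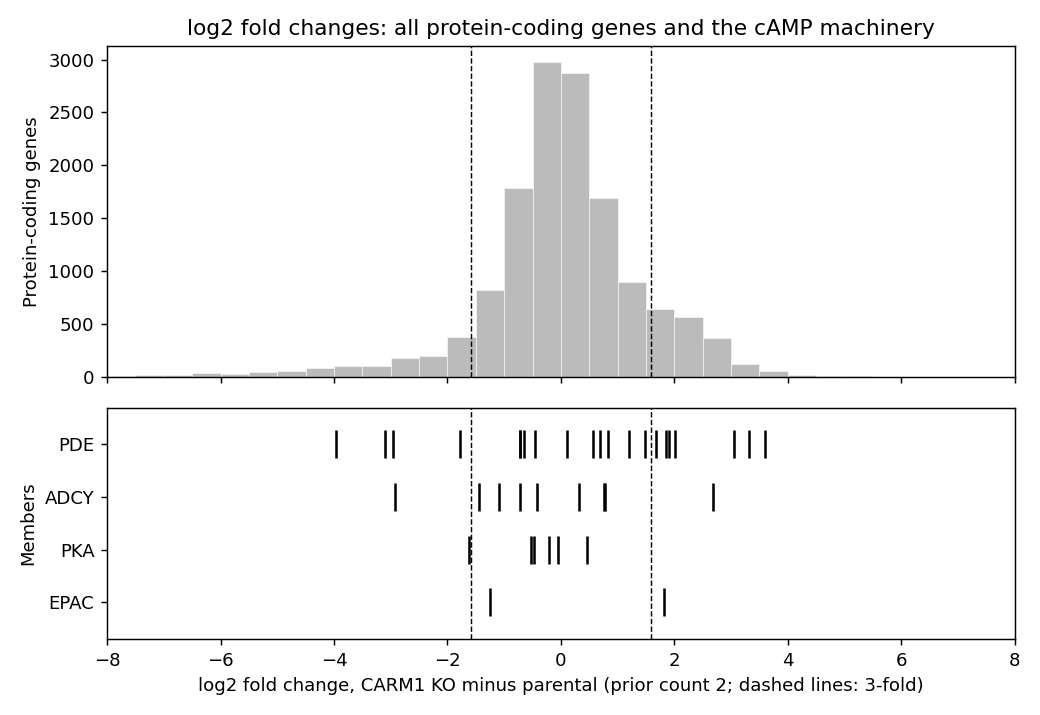
Histogram of the log2 fold changes (prior count 2) of 14140 protein-coding genes counted with 10 reads or more in all, above the same values of the PDE, ADCY, PKA and EPAC genes as ticks. The dashed lines mark 3-fold, the PDE ticks reach from -3.97 for PDE4D to 3.60 for PDE4B, and the PKA ticks lie between -1.63 and 0.46.

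The position of the genes was described by their neighbours, the 5 nearest protein-coding genes with at least 50 reads on each side. In GRCh37, PDE4D occupies chr5:58264865-59817947 (minus strand). The median log2 fold change of its 10 neighbours was -0.28 while that of PDE4D was -3.97, and 1 neighbour was called lower and 1 higher. PDE1C occupies chr7:31790793-32467743 (minus strand). Its neighbours had a median of -0.30 beside 3.31 for PDE1C, and none of the 10 was called higher. PDE3B occupies chr11:14665350-14893590 (plus strand), with a neighbour median of 0.30 beside -3.10. The differences of these genes were thus not shared by most of their neighbours. PRKAR2B, at chr7:106685150-106802256 (plus strand), stood among genes that were lower as well. All 10 of its neighbours had a log2 fold change between -1.64 and -0.32, with a median of -0.95 beside -1.63 for PRKAR2B. For PDE4C the neighbour median was -0.84 with 3 genes called lower, and for PDE4B it was 0.75 with 3 genes called higher. The part of these neighbourhoods in the differences was not tested.

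Exons of some of the genes overlap those of genes on the opposite strand, and the strand setting of the counting is not given in the sources used here. PDE8B shares 383 bases with WDR41, which had 1646 and 1941 reads against the 17 and 68 of PDE8B. ADCY7 shares 3593 bases with BRD7, which had 6802 and 7568 reads. ADCY3 shares 1488 bases with CENPO, which had 1916 and 1424 reads against the 819 and 628 of ADCY3. The called gene RAPGEF3 shares 83 bases with SLC48A1, which had 163 and 337 reads. PRKAR1B shares 385 bases with DNAAF5, which had 676 and 637 reads against the 505 and 713 of PRKAR1B. Stretches of 116 and 72 bases with expressed genes are shared by PDE7A and PDE6D. PRKAR2A shares 303 bases with PRKAR2A-AS1, which had 70 and 86 reads against the 4527 and 4462 of PRKAR2A. The counts of PDE8B, ADCY7, ADCY3, RAPGEF3, PRKAR1B, PDE7A and PDE6D, and the first rank of ADCY3 among the cyclases, are therefore uncertain. For PDE4D, the overlapping gene PART1 had 3 and 1 reads.

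Because CREB binds the cAMP response element (CRE), the promoter sequences of the set were searched for its letters, TGACGTCA, a palindrome that reads alike on both strands. RefSeq promoter windows of GRCh38.p14, from 250 bases before to 50 bases after each start, were found for 36 of the 44 genes. PDE3B, PDE7A, PDE9A, PDE6G, ADCY6, ADCY8, ADCY9 and PRKACG were not matched. The full element stood in 3 of the 36 genes, against 2.25% of all 27305 genes with a window. Its 5-base core TGACG, on either strand and including the full elements, stood in 18 of the 36 genes and in 28.4% of all genes, and by window in 22.5% of the 102 windows of the set and 24.6% of all windows. Genes of the set have more windows each, which the figures by gene reflect. The full elements are shown to place them beside the RNA values, each in a stretch of 30 bases on the plus strand with the element in capitals, at the GRCh37 position found by exact match of the window.
PDE4A, chr19:10527435-10527464: cgtcagtccgcTGACGTCAcgccccaggag
PDE7B, chr6:136172673-136172702: actaaacccttTGACGTCActcttgaaatg
PRKAR1A, chr17:66508511-66508540: gcgaggcgcatTGACGTCAgtagccgaacg
The element spanned the annotated start of PDE4A, from 3 bases upstream, and began 155 bases upstream of that of PDE7B. In PRKAR1A the same element lay 49 bases upstream of 1 annotated start and just downstream of another. The RNA of these genes did not move as a group, since PDE4A was 3.53-fold lower, PRKAR1A was 1.44-fold lower and PDE7B had an interval that included 1. A match of letters is a description and does not show binding.

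Genes that act around the cAMP machinery were counted from 8 lists. Of 11 G protein alpha subunit genes, none was called. Of these 11, 8 had 1000 reads or more, where 10.2% of all genes were called. GNAS, which encodes the cyclase-stimulating Gs, had 6646 and 8701 reads in parental and CARM1 KO cells and was 1.28-fold higher (95% interval 1.24 to 1.32). GNAI2, which encodes an inhibitory Gi, had 3029 and 7207 reads and was 2.32-fold higher (95% interval 2.23 to 2.43). Of 42 receptors that raise cAMP, 14 had enough reads, and 5 were called higher and 2 lower. Of these 14, 8 had 10 to 99 reads and 5 of the 8 were called, a share read against the 44.1% of all genes at that depth. CALCRL, which forms receptors for CGRP and adrenomedullin, had 386 parental and 14 CARM1 KO reads and was 28.2-fold lower (95% interval 16.6 to 52.1). The prostaglandin E2 receptor gene PTGER2 had 34 and 10 reads and was 3.48-fold lower. On the log2 scale with the prior count of 2, the largest differences in the other direction were those of the parathyroid hormone receptor gene PTH2R, with 8 and 50 reads, the VIP receptor gene VIPR1, with 8 and 42 reads, and the beta-adrenergic receptor gene ADRB1, with 8 and 38 reads. CALCRL was the best counted of the receptors called.

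In the lists of PKA inhibitors, anchoring proteins and CREB genes, PKIA was the gene called. PKIA encodes a peptide that inhibits the PKA catalytic subunit, and it had 46 parental and 341 CARM1 KO reads and was 7.24-fold higher (95% interval 5.31 to 10.1). Of the 3 PKA inhibitor genes it was the only one called. With 100 to 999 reads, 1 of 2 was called, against 28.5% of all genes, and with 10 to 99 reads, 0 of 1, against 44.1%. None of the 15 A-kinase anchoring protein genes with enough reads was called, with log2 fold changes from -1.50 to 1.21 and a median of -0.02. Of these 15, 11 had 1000 reads or more, where 10.2% of all genes were called. None of the 8 genes of the CREB family and its coactivators was called, and 7 of the 8 had a log2 fold change below 0. Of these 8, 5 had 1000 reads or more, read against the same 10.2%. The coactivator gene EP300 had 1336 and 674 reads and was 2.03-fold lower (95% interval 1.85 to 2.23).

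Of 19 genes known to respond to cAMP, 14 had enough reads, and 3 were called higher and 5 lower, with a median log2 fold change of -1.26. With 1000 reads or more, 2 of 2 were called, with 100 to 999 reads, 3 of 7, and with 10 to 99 reads, 3 of 5. The backgrounds at these depths were 10.2%, 28.5% and 44.1%, and 21.4% at all depths together. EGR1, an immediate early transcription factor, had 152 parental and 17 CARM1 KO reads and was 9.15-fold lower (95% interval 5.53 to 16.1). The clock gene PER1 had 145 and 22 reads and was 6.75-fold lower (95% interval 4.29 to 11.1). VGF, a neuropeptide precursor, had 45 and 7 reads and was 6.58-fold lower (95% interval 2.95 to 17.3). BDNF, a neurotrophin, had 734 and 3353 reads and was 4.46-fold higher (95% interval 4.12 to 4.84). The phosphatase gene DUSP1 had 987 and 3045 reads and was 3.01-fold higher (95% interval 2.80 to 3.24), and PPARGC1A, a coactivator of metabolic genes, had 1 and 28 reads. The list therefore went both ways. Many of these genes respond to growth factor and stress signals as well as to cAMP.

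Genes that make and read out cGMP, the other substrate of the PDEs, were counted as well. Of 7 genes of cGMP cyclases and kinases with enough reads, 2 were called higher and 2 lower, beside 12.4% and 9.02% of all genes. With 100 to 999 reads, 3 of 5 were called, against 28.5%, and with 1000 reads or more, 1 of 1, against 10.2%. With 10 to 99 reads, 0 of 1 was called, against 44.1%. PRKG1, the cGMP-dependent kinase, had 4162 parental and 125 CARM1 KO reads and was 34.1-fold lower (95% interval 28.5 to 41.1). GUCY1A1, the alpha subunit of the nitric oxide receptor cyclase, had 555 and 5 reads and was 114-fold lower (95% interval 48.4 to 351). Its partner GUCY1B1 had 41 and 221 reads and was 5.26-fold higher (95% interval 3.76 to 7.54), so these subunit genes differed in opposite directions. The other alpha subunit gene, GUCY1A2, had 83 and 86 reads, and the interval of its ratio, 0.740 to 1.39, included 1. NPR1, a natriuretic peptide receptor cyclase, had 28 and 96 reads and was 3.35-fold higher (95% interval 2.18 to 5.30). Of the 5 cyclic nucleotide channel and Popeye genes with enough reads, 1 was called higher and 2 lower. By the same 3 depths from low to high, 1 of 2, 1 of 1 and 1 of 2 were called. CNGA1, a cGMP-gated channel, had 193 parental and 0 CARM1 KO reads. It was 65.9-fold lower with the 0 set to 3 reads, and its counting interval reached down to 53.1-fold. BVES, a membrane protein that binds cAMP, had 2171 and 365 reads and was 6.09-fold lower (95% interval 5.45 to 6.82). HCN4, a pacemaker channel, had 6 and 35 reads and was 5.70-fold higher (95% interval 2.37 to 16.6).

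**Figure D5:**
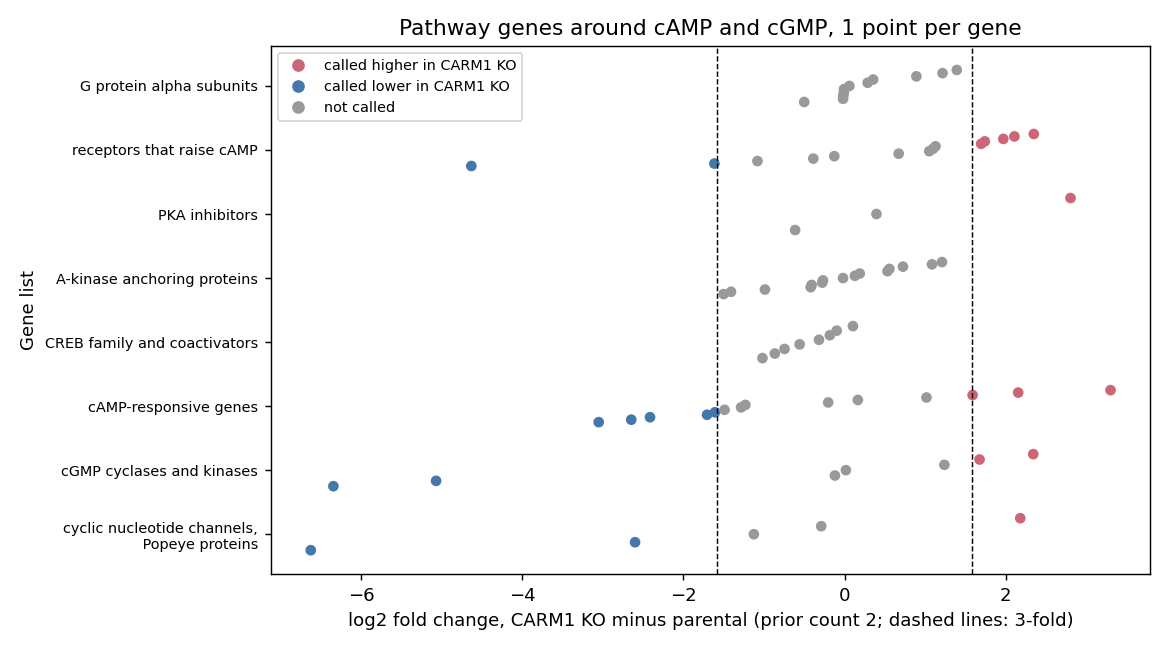
log2 fold change (prior count 2) of each gene counted with 10 reads or more in all, in 8 lists around cAMP and cGMP, 1 point per gene, coloured by call, with dashed lines at 3-fold. The G protein, anchoring protein and CREB lists hold no called gene, and most of their genes had 1000 reads or more, where 10.2% of all genes were called. The points farthest left are CNGA1, GUCY1A1, PRKG1 and CALCRL.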

How the data were processed

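RNA-Seq libraries (75 bp paired-end reads) of 1 parental and 1 CARM1 KO culture were compared. The authors aligned reads to hg19 with bowtie2, and deposited estimated counts per Ensembl gene from RSEM (version 1.2.3 in the submitters' processing notes, while the paper's methods name another) as unnormalized whole numbers. Reads that match several genes are apportioned by RSEM, so paralogs can trade reads. The Ensembl release and the strand setting are not given in the sources used here.

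Symbols, types, positions and merged exon lengths came from GENCODE v44 lifted to GRCh37, the same build as hg19, which held 55501 of 57736 identifiers. Counts were scaled with TMM in edgeR 4.0.16 (R 4.3.3), with a scaled CARM1 KO to parental library size ratio of 1.02. Folds have exact 95% binomial (Clopper-Pearson) intervals from scipy 1.17.1. Log2 fold changes used a prior count of 2. Levels are RPKM over merged exons, computed here with the scaled library sizes. Exon overlaps were found with bedtools 2.31.1. The study's edgeR thresholds were an FDR under 0.05 and a fold above 3. With 1 library per group the spread cannot be estimated, so the fold was kept with the counting interval, and edgeR's exact test with an assumed spread was an alternative. The other alternatives were DESeq2 1.42.0 size factors, scaling by library size alone or by the upper quartile, other minimums of reads, a fold above 2, intervals wholly past 3, a prior count of 0.5 and the longest transcript as length. The steps were tested on simulated data.

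The members and lists were chosen with earlier results of these data known. Every member was named, and of the lists around it the called genes, up to 3 in each direction. PTGIR, PTH1R, JUNB and INHA were called but fell outside that limit. GNAS, GNAI2, EP300, GUCY1A2, PART1, WDR41, BRD7 and DNAAF5 were named after their values were seen. PECAM1, a listed endothelial marker, was not matched.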

Additional observations from a re-analysis of the deposited data

How the results depend on the processing

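The scaling changed no call: with library size only, DESeq2 size factors and upper-quartile scaling, the same 10 genes were called higher and the same 7 lower. With intervals wholly past a fold of 3, 5 genes were called higher and 4 lower, since PDE11A, PDE8B, RAPGEF3, PDE2A, PDE3A, PDE4A, PRKAR2B and ADCY2 lost their call. With edgeR's exact test at an assumed coefficient of variation of 0.4, 3 were called higher (PDE4B, PDE1C and PDE6B) and 3 lower (PDE4D, PDE3B and PDE4C), which follows from the wider spread assumed. At 0.12, 10 and 6 were called and ADCY2 lost its call. A fold above 2 added PDE9A and ADCY4, for 11 higher and 8 lower, against 18.8% and 14.8% of all genes (33.6% in all). With at least 50 reads, 9 and 5 were called and the median log2 fold change was 0.31 in place of 0.023, because fewer genes were kept. Under the other alternatives that median lay between -0.015 and 0.057. For single genes under the scalings and for the leading shares under the other length, 124 of 124 comparisons gave the same result, taken as a share within 5 percentage points or a log2 value within its interval or 0.05. With 1 library per group, a scaling shifts every gene by nearly the same log2 amount. PDE4D, at -3.97, became -4.00 with library size only, -3.93 with DESeq2 size factors and -3.95 with upper-quartile scaling. Such shifts were under 0.05, so the agreement for single genes was fixed in advance and is no check of them. No paired analysis was possible because each group holds 1 library, which also means that none could be omitted. At this depth, genes under 10 reads could not be compared.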

Other observations

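Transcripts named after genes of the set but not coding for protein were outside the comparisons, and their values were looked at after those of the set. PRKAR1B-AS1, an antisense transcript of the regulatory subunit gene PRKAR1B, had 4 parental and 15 CARM1 KO reads and was 3.66-fold higher (95% interval 1.17 to 15.2). PRKACB-DT, which starts next to PRKACB and runs the other way, had 74 and 70 reads, and PRKAR2A-AS1 had 70 and 86 reads, both with intervals of the fold that included 1. PDE7A-DT had 7 parental and 0 CARM1 KO reads. Reads of antisense genes cannot be told apart from those of their partners unless strand was used in the counting, which is not given in the sources used here.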
